A study of Mus musculus with 2 samples.

Results

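The chemokine genes Cxcl12, Cxcl14, Cxcl1, Ccl2, Ccl7, Ccl8, Ccl11 and Ccl3 were followed by their symbols through single-cell RNA sequencing of neonatal mouse tendon, 8 of the 27998 genes in each matrix. The data are 2 libraries of tendon cells from pups at postnatal day 7, 1 for each condition. In the mutant, a floxed allele of the TGFβ type II receptor gene Tgfbr2 was deleted by ScxCre, a Cre expressed in tendon cells, and the other allele was null (Tgfbr2 f/-;ScxCre, the genotype given for the study's mutants in general). The control is titled wild-type and called wild-type here, while its description field reads Het. All mice carried the reporters ScxGFP and RosaT. Each library came from 2 pups whose tendons of all limbs were mixed, and the scraping that clears the outer sheath of the tendon was left out, so sheath cells could be present. The wild-type library held 2364 cells with a median of 3866.5 unique molecular identifiers (UMIs, each standing for 1 captured RNA molecule), and the mutant library held 2592 cells with a median of 2828. With 1 library for each condition no difference between wild-type and mutant was tested. Intervals are 95% and cover counting error only, neither the spread between pups nor that between cells. A batch effect cannot be told apart from the genotype. Levels within a class and shares of cells are both given here. A level is a gene's share of the UMIs of its class, not an amount of RNA per cell. A class need not hold the same kinds of cell in both libraries.

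Chemokines are small secreted proteins that draw migrating cells along a gradient through receptors that couple to G proteins. The CXC group holds Cxcl12, which keeps blood-forming and immune cells in place through Cxcr4, Cxcl1, which recruits neutrophils through Cxcr2, and Cxcl14, whose receptor is less settled. The CC group holds the monocyte attractants Ccl2, Ccl7 and Ccl8, the eosinophil attractant Ccl11 (eotaxin) and Ccl3, a product of activated macrophages. Atypical receptors such as Ackr3, which takes up Cxcl12, remove chemokines without the usual signal. Fibroblasts of many connective tissues make Cxcl12 and Cxcl14.

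Cells were put into classes by marker UMIs. Scx-high cells held 30 or more UMIs per 10,000 of Scx, the transcription factor of the tendon lineage, and numbered 1155 of 2364 wild-type cells (48.9%) and 227 of 2592 mutant cells (8.76%). The Scx UMIs include transcripts of the ScxGFP reporter, which cannot be told apart from those of Scx. Scx-low fibroblasts held fewer Scx UMIs and 5 or more UMIs over Ly6a, Cd34, Dpt, Lum and Col3a1, and numbered 716 (30.3%) and 1824 (70.4%). Mural cells numbered 152 and 89, endothelial cells 22 and 30, and immune cells 193 and 196. Marker genes outside the gates went with the class names. C1qa, a macrophage gene, stood at 4904 and 4701 CPM (UMIs of a gene in 1000000 UMIs of the class) in wild-type and mutant immune cells and at most at 4.79 in either fibroblast class. The Scx-high cells of the libraries were not alike in other genes. Tnmd, a tenocyte gene, was at 7486 and 5534 CPM, the median cell held 1 and 19 UMIs of the 5 fibroblast genes, and the myogenic gene Myog was at 0.416 and 319. The Scx-low cells of the libraries had Tnmd at 1180 and 1047 CPM. Tgfbr2 itself stood at 73.3 CPM in wild-type and 71.9 in mutant Scx-low cells, but the UMIs come from the 3′ end of the transcript, outside the deleted part, and check nothing.

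The members sit on 4 chromosomes (GRCm38). Cxcl1 lies on chromosome 5 from 90891241 to 90893115, Cxcl12 on chromosome 6 from 117168535 to 117181367 and Cxcl14 on chromosome 13 from 56288643 to 56296551. Ccl2 (from 82035571), Ccl7, Ccl11 and Ccl8 (to 82116799) lie with Ccl12 within 81.2 kb of chromosome 11, and Ccl3 stands apart on the same chromosome from 83647844 to 83649355. Promoters of 5 of the 8 members, all but Ccl2, Ccl7 and Ccl11, were matched in RefSeq (GRCm38.p6). The 250 bases before the start are printed for the members with most UMIs in the fibroblast classes. Capitals mark matches to the NF-κB consensus, the site of a factor known to act on inflammatory genes.
Cxcl12, chr6:117168285-117168534, plus strand: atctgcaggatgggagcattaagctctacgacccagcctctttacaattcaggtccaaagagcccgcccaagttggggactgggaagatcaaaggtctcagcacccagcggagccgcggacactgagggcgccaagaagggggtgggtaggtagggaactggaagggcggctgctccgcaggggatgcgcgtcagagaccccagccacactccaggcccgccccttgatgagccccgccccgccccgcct
Cxcl14, chr13:56296552-56296801, minus strand: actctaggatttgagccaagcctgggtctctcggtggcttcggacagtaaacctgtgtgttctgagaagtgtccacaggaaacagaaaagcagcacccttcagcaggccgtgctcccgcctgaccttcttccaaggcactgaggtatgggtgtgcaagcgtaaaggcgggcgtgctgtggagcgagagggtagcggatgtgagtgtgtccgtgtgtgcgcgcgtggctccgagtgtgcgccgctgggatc
Cxcl1, chr5:90890995-90891244, plus strand: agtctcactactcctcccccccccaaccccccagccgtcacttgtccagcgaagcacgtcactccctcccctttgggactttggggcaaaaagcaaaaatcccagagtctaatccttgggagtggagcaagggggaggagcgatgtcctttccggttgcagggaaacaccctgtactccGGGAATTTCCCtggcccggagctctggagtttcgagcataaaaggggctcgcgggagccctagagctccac
The Cxcl1 window held 2 overlapping matches, 1 on each strand, which begin 71 and 70 bases before the start. The Cxcl12, Cxcl14, Ccl8 and Ccl3 windows held none on either strand, and 7.25% of all 32851 promoters of that length held one. The AP-1 motif TGANTCA was found in none of the 5 windows and in 6.75% of all promoters.

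Not every member was mainly a fibroblast product in both libraries. Cxcl12, Cxcl14 and Cxcl1 UMIs lay mostly in fibroblasts: the 2 fibroblast classes together held most UMIs of each in both libraries. Scx-low cells alone held 67.8% of wild-type and 91.3% of mutant Cxcl12 UMIs. The 2 classes also held most UMIs of all genes, so such a share alone does not set a gene apart. Scx-high and Scx-low cells had 4806952 and 2714255 of 9451606 wild-type UMIs, and 1049427 and 5714617 of 8250248 mutant ones. By CPM, wild-type Cxcl1 was at 88.1 in Scx-low and 95.4 in mural cells. Ccl2, Ccl7 and Ccl8 stood highest in CPM in immune cells of both libraries, and Ccl11 in mural cells. By share of the library's UMIs, immune cells held 74.8% of Ccl7 and 75.9% of Ccl8 in wild-type, whereas in the mutant, where Scx-low cells made up 70.4% of all cells, those held 62.0% of Ccl7 and 62.2% of Ccl8, and immune cells 26.8% and 36.1%. Immune cells held most Ccl2 UMIs of both libraries, 71.7% and 60.9%. Mural cells held 65.9% of wild-type Ccl11, and Scx-low cells 71.0% of mutant Ccl11. Ccl3 was an immune cell transcript, with 88 of 89 wild-type and 35 of 38 mutant UMIs in immune cells.

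**Figure D1:**
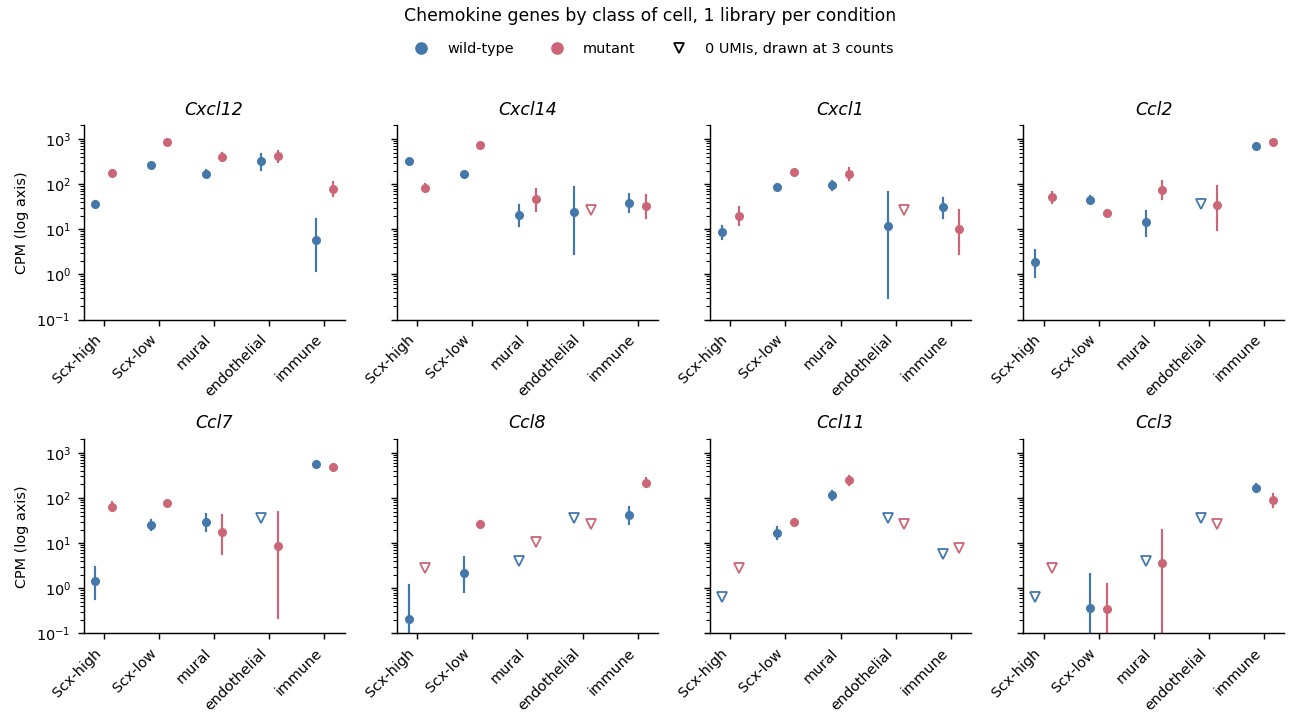
CPM (log axis) of each gene in 5 classes of cell, wild-type in blue and mutant in red, with 1 library each; bars are 95% counting intervals (cut at the axis where they reach below it) and open triangles are classes with 0 UMIs, drawn at the level of 3 counts. Cxcl14 is highest in a fibroblast class, Ccl2, Ccl7, Ccl8 and Ccl3 in immune cells and Ccl11 in mural cells. Cxcl12 and Cxcl1 are higher in Scx-low than in Scx-high cells, and mural cells carry both. Endothelial cells carry Cxcl12 too.

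Background from RNA set free by broken cells was looked at through genes and cells that bear on it. In haemoglobin-rich red cells, which should lack chemokines, the share of cells with a UMI ran from 0 to 1.27% over the single members. Median depths were 5682 and 4451 UMIs, but the median cell held 5578 and 4378 haemoglobin UMIs. Few other UMIs were thus sampled in these cells. In wild-type Scx-low cells, the macrophage genes C1qa, Lyz2 and Pf4 stood at 0.0831% to 0.119% of their immune cell level, against 6.49% for Ccl2, 4.53% for Ccl7 and 5.21% for Ccl8. In mutant Scx-low cells the range was 0.0410% to 0.0929%, against 2.75%, 15.8% and 11.8%. Some of these values rest on few UMIs. Without the 5 Scx-low cells with most UMIs of the gene, wild-type Ccl2 was at 0.532% of the immune level on 10 UMIs, Ccl7 at 2.71% on 41, and none of the 6 Ccl8 UMIs was left. In the mutant they were then at 0.898%, 13.5% and 5.65%. Tenocyte genes were also found in immune cells. In wild-type, Tnmd stood there at 459 CPM and Fmod at 324, against 7486 and 5358 in Scx-high cells. Cxcl14 was at 38.6 in the same immune cells and 325 in Scx-high cells. In the mutant, Tnmd and Fmod were at 141 and 89.7 in immune cells, against 5534 and 2529. The part of free RNA in the levels of any class was not tested. In wild-type Scx-high cells Ccl2 and Ccl7 were at 0.268% and 0.260% of the immune level, on 9 and 7 UMIs, against 0.0848% to 0.171% for the macrophage genes.

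Scx-low against Scx-high cells of the same library addressed which fibroblasts carry each chemokine. A gene was counted as higher or lower past a 2-fold ratio where both classes together held 20 or more UMIs. Some members reached that number through Scx-low cells. In wild-type, Ccl2, Ccl7 and Ccl11 had 9, 7 and 0 UMIs in Scx-high cells, and in the mutant Ccl8 and Ccl11 had 0. In wild-type, 5 of 6 members tested were higher in Scx-low cells and 0 were lower, while 20.9% of 10549 genes were higher and 6.16% lower. In the mutant, 5 of 7 were higher and 1 lower, against 13.9% and 5.84% of 10611 genes. The median log2 ratio was 3.75 over the members and 0.45 over all genes in wild-type, and 3.18 and 0.13 in the mutant.

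Cxcl12 marked the Scx-low cells of both libraries. It stood at 37.0 CPM (31.8 to 42.9) in wild-type Scx-high cells and 271 (252 to 291) in wild-type Scx-low cells, a ratio of 7.31 (6.20 to 8.66). In the mutant it stood at 181 (156 to 209) and 881 (856 to 905), a ratio of 4.86 (4.21 to 5.65). Wild-type Scx-high cells were lowest of the fibroblasts and mutant Scx-low cells highest, and no intervals overlapped. Cells under 1500 UMIs were left out of thinned shares, 41 wild-type and 164 mutant Scx-low cells among them. With the others thinned to 1500 UMIs, 5.04% of wild-type Scx-high cells held a Cxcl12 UMI, 25.9% of wild-type Scx-low cells (22.7 to 29.4), 19.6% of mutant Scx-high cells and 57.3% of mutant Scx-low cells (54.9 to 59.7). Unthinned, the shares were 11.9%, 41.5%, 29.5% and 69.2%. Endothelial and mural cells carried Cxcl12 too, at 319 and 169.7 CPM in wild-type and 419.6 and 402 in the mutant. The endothelial levels rest on few cells: 6 of 22 wild-type and 8 of 30 mutant ones held a UMI. The 5 endothelial cells with most held 96.3% and 93.8% of the UMIs. Wild-type endothelial and Scx-low cells did not differ beyond their intervals.

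Cxcl14 had opposite orders in the libraries. In wild-type it was the member with most UMIs in Scx-high cells, at 325 CPM (309 to 341) against 167 (152 to 183) in Scx-low cells, a ratio of 0.515 (0.463 to 0.572). In the mutant it stood at 82.9 (66.4 to 102) in Scx-high and 757 (735 to 779.9) in Scx-low cells, a ratio of 9.13 (7.39 to 11.4). Scx-high cells were thus above Scx-low cells in wild-type and below them in the mutant. Mural, endothelial and immune cells of both libraries held 46.7 CPM or less. In thinned cells, the share with a Cxcl14 UMI was 25.1% in wild-type and 7.66% in mutant Scx-high cells, and 12.7% and 31.8% in Scx-low cells. Unthinned, these shares were 37.7%, 15.0%, 19.0% and 38.9%. The wild-type ratio was 0.801 without the Scx-low cells that held a Pi16 or Dpp4 UMI. The mutant ratio was 3.87 among cells without a Fos UMI and 14.9 without the 5 cells with most Cxcl14 UMIs in each class.

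Cxcl1 was low in Scx-high cells of either library and higher in Scx-low and mural cells. It stood at 8.53 CPM in Scx-high and 88.1 in Scx-low wild-type cells (ratio 10.3, 7.39 to 14.8), and at 20 and 185 in the mutant (ratio 9.24, 6.02 to 15.0). Mural cells were at 95.4 and 169. Their ratios to Scx-low cells of their library were 1.08 (0.821 to 1.42) and 0.913 (0.666 to 1.22), no difference beyond the counting interval. The 5 mural cells with most Cxcl1 UMIs held 56.9% of them in wild-type and 57.4% in the mutant. In wild-type 1 of these held 22 of 72, along with 175 UMIs of the fibroblast genes. The part of mixed droplets in the mural level was not tested. Mutant over wild-type, Cxcl1 was 2.10 times as high in Scx-low cells (1.82 to 2.43), which was 0.906 (0.540 to 1.51) among cells without a Fos UMI, and 2.35 times in Scx-high cells (1.32 to 4.06), the latter on 21 mutant UMIs and at 1.38 without the 5 cells with most of them in each library. Its share of thinned Scx-low cells was 6.81% in wild-type and 14.8% in the mutant (12.6% and 19.7% unthinned).

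Ccl11 was seen in Scx-low fibroblasts and mural cells only. It had 0 UMIs in 1155 wild-type and 227 mutant Scx-high cells, which allows shares of cells with a UMI of up to 0.260% and 1.32% (3 counts of the cells, counting error only), and 0 in endothelial and immune cells of both libraries. Scx-low cells held 16.6 CPM in wild-type and 29.6 in the mutant, at least 26.6-fold and at least 10.3-fold above Scx-high cells (against a floor of 3 counts over the class). Mural cells were 6.96 times (4.80 to 10.2) and 8.38 times (6.24 to 11.2) above Scx-low cells, at 115 and 248 CPM. Mutant over wild-type, Ccl11 was 1.78 times as high in Scx-low cells (1.28 to 2.54), short of 2-fold, and 2.15 times in mural cells (1.54 to 2.98).

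Mutant against wild-type within a class addressed whether chemokine levels differ between the libraries. The fibroblast classes rest on Scx, which the paper reports as lost in mutant tendon cells. For mutant tendon cells that kept ScxGFP, some with weak or absent RosaT, the paper proposes recent recruitment. Scx UMIs include ScxGFP transcripts, so such cells could lie in the mutant Scx-high class. A difference in the kinds of cell in a class cannot be told apart from one in level. Mutant Scx-low over wild-type Scx-high cells, the ratio was 23.8 (20.5 to 27.8) for Cxcl12 and 2.33 (2.20 to 2.47) for Cxcl14. In Scx-low cells, 5 of 7 members tested were higher in the mutant and 0 lower, against 5.70% of 11062 genes higher and 5.64% lower. Of these, Ccl8 was tested through its mutant UMIs, with 6 in wild-type. In Scx-high cells, 4 of 5 were higher and 1 lower, against 12.8% and 7.89% of 9707 genes. That count of 4 was 2 among cells without a Fos UMI and 1 without the 5 cells with most UMIs of each gene. Without those 5 cells Cxcl1 was inside 2-fold, and Ccl2 and Ccl7 had under 20 UMIs left. With all cells, Ccl2 and Ccl7 reached 20 through the mutant, with 9 and 7 wild-type UMIs. In the 2 fibroblast classes summed, which takes in the shift from Scx-high to Scx-low cells, 6 of 7 were higher and 0 lower, against 8.84% and 5.58% of 11847 genes. Ccl8 was again tested through its mutant UMIs, with 148 there and 7 in wild-type. Among cells without a Fos UMI 3 were higher and Ccl2 was lower, with Cxcl14 and Cxcl1 inside 2-fold (1.07 and 1.53). Ccl8 then had under 20 UMIs. The mix of Scx-high and Scx-low cells also differed there, and within Scx-low cells without Fos the Cxcl14 ratio was 2.70. In immune cells, 2 of 7 were higher and 1 lower, against 6.11% and 5.28% of 5175 genes. The higher ones were Ccl8 and Cxcl12, and the lower one Cxcl1 on 16 wild-type and 4 mutant UMIs, a ratio of 0.332 whose interval includes no difference (0.0808 to 1.03). Immune Cxcl12 was tested through its mutant UMIs, with 3 in wild-type and 31 in the mutant. Of these mutant UMIs, 21 lay in 16 immune cells with 5 or more UMIs of the fibroblast genes. The median log2 ratio of the members was 1.59 in Scx-low cells, where that of all genes was −0.03, and −0.21 in immune cells, where it was 0.03.

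**Figure D2:**
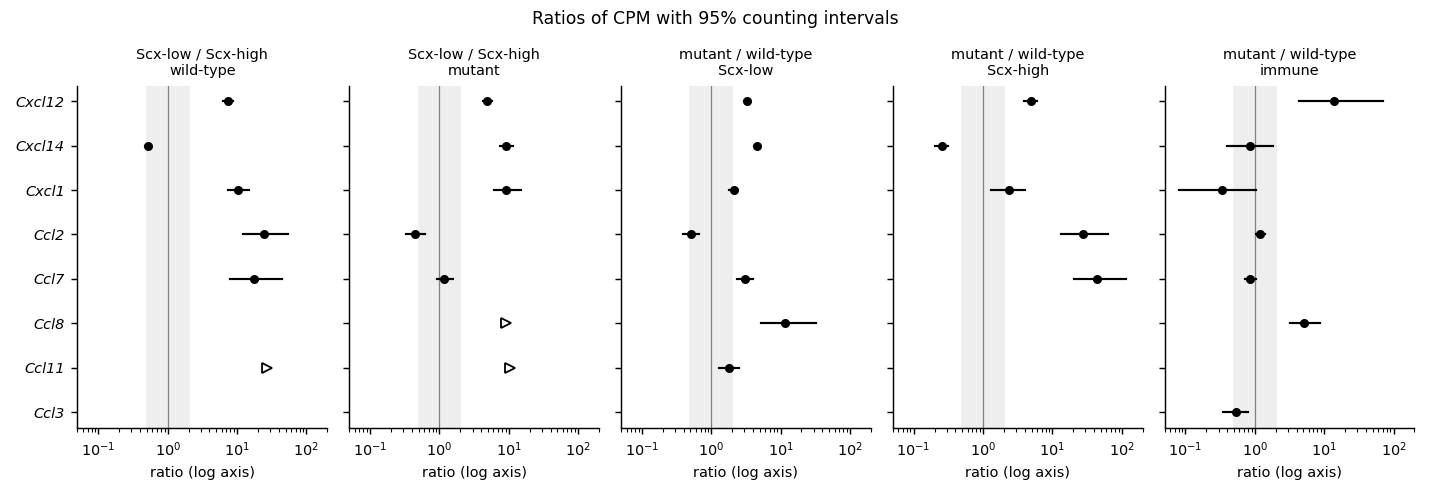
Ratios of CPM (log axes) for the genes tested in 5 comparisons, points with 95% counting intervals and open triangles for lower bounds where the second class had 0 UMIs; the grey band spans 2-fold either way. Cxcl14 lies to the left in mutant over wild-type Scx-high cells (0.255) and to the right in Scx-low cells (4.53).

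Cxcl12 was higher in the mutant in both fibroblast classes, 3.25 times (3.01 to 3.52) in Scx-low and 4.89 times (3.96 to 6.03) in Scx-high cells. It was 2.37 times as high in mural cells (1.82 to 3.08), and 1.31 times in endothelial cells (0.804 to 2.19), where the interval includes no difference. Both kinds of Scx-high cell showed it: the ratio was 4.17 (2.93 to 6.08) in Scx-high cells with 5 or more UMIs of the fibroblast genes and 4.24 (2.57 to 6.67) in those with fewer. Among cells without a Fos UMI the Scx-high ratio was 2.39. Immune cells held 3 wild-type and 31 mutant Cxcl12 UMIs, a ratio of 13.7 (4.28 to 70.2), and 18 of the 31 lay in 5 mutant cells. Those 5 cells also held 19 to 45 UMIs of the fibroblast genes, where the median immune cell held 0, and the fibroblast genes together stood at 195 CPM in wild-type and 1204 in mutant immune cells. Leaving out immune cells with 5 or more fibroblast gene UMIs (5 of 193 and 16 of 196) left 3 and 10 Cxcl12 UMIs, too few for the 2-fold count. The part of mixed droplets in this difference was not tested.

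Cxcl14 was 4.53 times as high in mutant as in wild-type Scx-low cells (4.11 to 5.00) and 3.92 times lower in mutant Scx-high cells (ratio 0.255, 0.203 to 0.317). The summed fibroblasts were at 268 CPM in wild-type and 652 in the mutant, a ratio of 2.44 (2.31 to 2.57). The summed ratio was 1.07 among cells without a Fos UMI. Of the Scx-low cells, 236 of 716 wild-type and 287 of 1824 mutant ones lacked Fos. The mix of the 2 classes thus differed in that sum. Within Scx-low cells without Fos, Cxcl14 was 2.70 times as high in the mutant (2.20 to 3.33). The Scx-high ratio was 0.160 without the 5 cells with most Cxcl14 UMIs in each library. In Scx-high cells with and without the fibroblast genes it was 0.143 (0.109 to 0.184) and 0.463 (0.278 to 0.726).

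The CC monocyte attractants differed among themselves. Ccl7 stood at 25.4 CPM in wild-type and 76.6 in mutant Scx-low cells, 3.02 times as high (2.33 to 3.95), and its share of thinned cells was 1.63% and 5.78%. Ccl8 had 6 UMIs in 5 of 716 wild-type Scx-low cells and 148 in 39 of 1824 mutant ones, 11.7 times as high in CPM (5.26 to 32.4). Mutant immune cells also held more Ccl8, 220.3 CPM against 42.4, a ratio of 5.19 (3.22 to 8.71). Ccl7 and Ccl2 in immune cells were at ratios of 0.863 (0.715 to 1.04) and 1.2 (1.03 to 1.40), both inside 2-fold. Ccl3 in immune cells was at 169.7 CPM in wild-type and 89.7 in the mutant, a ratio of 0.528 (0.346 to 0.790), and 1 wild-type cell held 28 of its 88 UMIs.

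Ccl2 rested on a handful of cells. It stood at 45.3 CPM in wild-type and 23.1 in mutant Scx-low cells, a ratio of 0.510 (0.396 to 0.657), but 5 of 716 wild-type cells held 91.9% of the UMIs and 1 cell alone held 68 of 123. In the mutant, 5 of 1824 cells held 67.4%. Without the 5 cells with most Ccl2 UMIs in each library the ratio was 2.03, so its direction turned. Scx-low over Scx-high, the Ccl2 ratio was 24.2 (12.3 to 54.2) in wild-type and 4.45 without those cells, and 0.449 (0.325 to 0.628) in the mutant. The shares of thinned cells, 0.889% (0.327 to 1.92) and 1.08% (0.644 to 1.71), did not differ beyond their intervals. The 3 wild-type cells with most Ccl2 held 51 to 80 UMIs of the fibroblast genes, 0 or 1 of the immune gate genes and 0 of C1q.

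Ccl2 and Ccl7 were also higher in mutant Scx-high cells. Ccl2 was at 1.87 CPM in wild-type and 51.5 in the mutant, a ratio of 27.5 (13.5 to 63.3), and Ccl7 at 1.46 and 64.8, a ratio of 44.5 (20.5 to 115). One mutant cell held 27 of the 54 Ccl2 and 25 of the 68 Ccl7 UMIs. Without the 5 cells with most UMIs in each library the ratio was 15.2 for Ccl2, on 13 mutant and 4 wild-type UMIs, and Ccl7 had 17 mutant UMIs and 1 wild-type UMI left. Scx-low over Scx-high in the mutant, Ccl7 was at 1.18 (0.914 to 1.55), and at 3.90 without those cells. All 68 Ccl7 UMIs lay in the 177 of 227 mutant Scx-high cells that had 5 or more UMIs of the fibroblast genes.

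**Figure D3:**
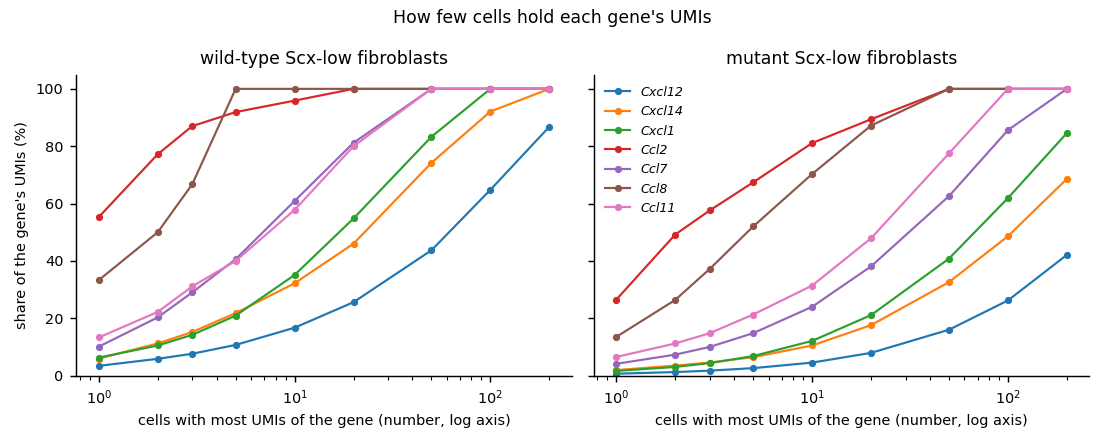
Share of each gene's UMIs held by the Scx-low fibroblasts with most of them (number of cells on a log axis), wild-type on the left and mutant on the right. For Ccl2 the top 5 cells hold 91.9% and 67.4%, for Cxcl12 10.7% and 2.60%.

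The number of cells behind a value thus ran from very few to most of a class. The 5 cells with most UMIs held 10.7% of wild-type and 2.60% of mutant Cxcl12 in Scx-low cells, 21.8% and 6.43% of Cxcl14, and 20.9% and 6.81% of Cxcl1. They held 40.6% and 14.8% of Ccl7, and 52.0% of mutant Ccl8. The Cxcl12 total was thus spread over many cells, and those of Ccl2 and Ccl8 over few.

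**Figure D4:**
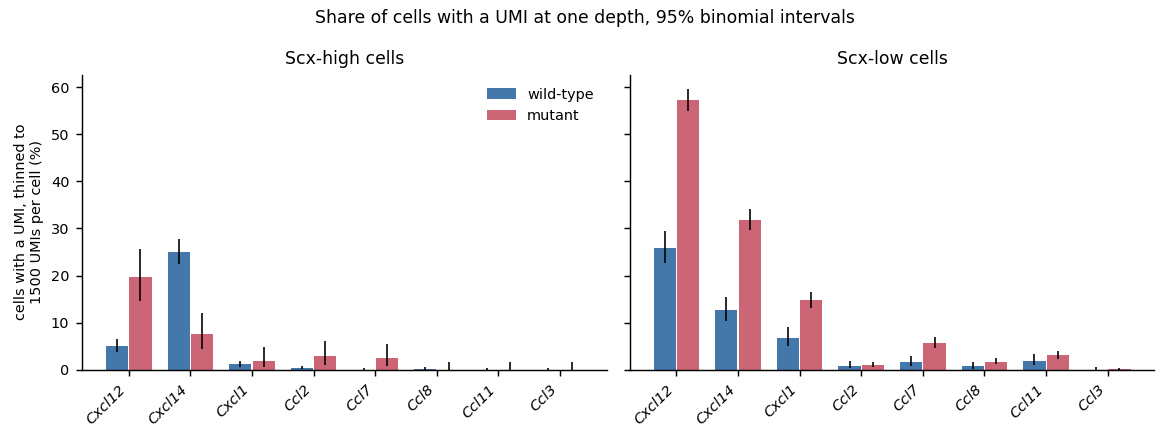
Share of cells with a UMI of each gene (%, bars from 0 with 95% binomial intervals) after thinning to 1500 UMIs, in Scx-high cells on the left and Scx-low fibroblasts on the right. Cells under 1500 UMIs were left out. Cxcl12 goes from 25.9% to 57.3% of Scx-low cells and Cxcl14 from 25.1% to 7.66% of Scx-high cells between wild-type and mutant.

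Scx-low fibroblasts were split by genes that the class rule did not use. Pi16 and Dpp4 mark fibroblasts of fascia and other loose sheaths. A UMI of either was found in 334 of 716 wild-type and 368 of 1824 mutant Scx-low cells. Wild-type Cxcl14 was low in these cells, 76.0 CPM against 260.0 in the rest (ratio 0.292, 0.233 to 0.365), whereas in the mutant the subsets stood at 845 and 731 (ratio 1.16, 1.08 to 1.24). Mutant over wild-type, Cxcl14 was thus 11.1 times as high (9.08 to 13.7) in cells with Pi16 or Dpp4 and 2.81 times (2.52 to 3.15) in the others. For Cxcl12 the mutant over wild-type ratios of the subsets were alike within their intervals, at 3.24 (2.86 to 3.67) and 3.08 (2.77 to 3.42). Its level was slightly lower in the Pi16 or Dpp4 cells of both libraries, at ratios of 0.847 (0.731 to 0.982) and 0.891 (0.832 to 0.955). Ccl7 was higher in the Pi16 or Dpp4 cells of both libraries, by 2.59 times (1.5 to 4.65) and 1.66 times (1.35 to 2.04), as was Ccl11, by 2.42 times (1.24 to 5.03) and 2.04 times (1.47 to 2.81).

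A split by Tnmd, the tenocyte gene, gave the other side of this. In wild-type, Cxcl14 was 1.99 times as high (1.64 to 2.43) in the 331 Scx-low cells with a Tnmd UMI as in the 385 without, and in the mutant 0.889 times (0.837 to 0.944). Ccl11 was lower in cells with Tnmd in both libraries, at ratios of 0.397 (0.187 to 0.790) and 0.168 (0.105 to 0.259). Mutant Ccl8 was too, at 0.257 (0.167 to 0.384), but on 31 UMIs in 14 cells with Tnmd and 117 in 25 without. The shares of cells with a Ccl8 UMI, 1.59% (0.871 to 2.65) and 2.65% (1.72 to 3.89), had overlapping intervals. Cxcl12 was spread evenly, at 0.941 (0.811 to 1.09) and 1.05 (0.997 to 1.11). Ccl7 was lower in wild-type cells with Tnmd (ratio 0.330, 0.176 to 0.586) and level in the mutant (0.987, 0.815 to 1.2). Immune cells, which should lack Tnmd, held 459 CPM of it in wild-type and 141 in the mutant, and the part of that background in this split was not tested.

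**Figure D5:**
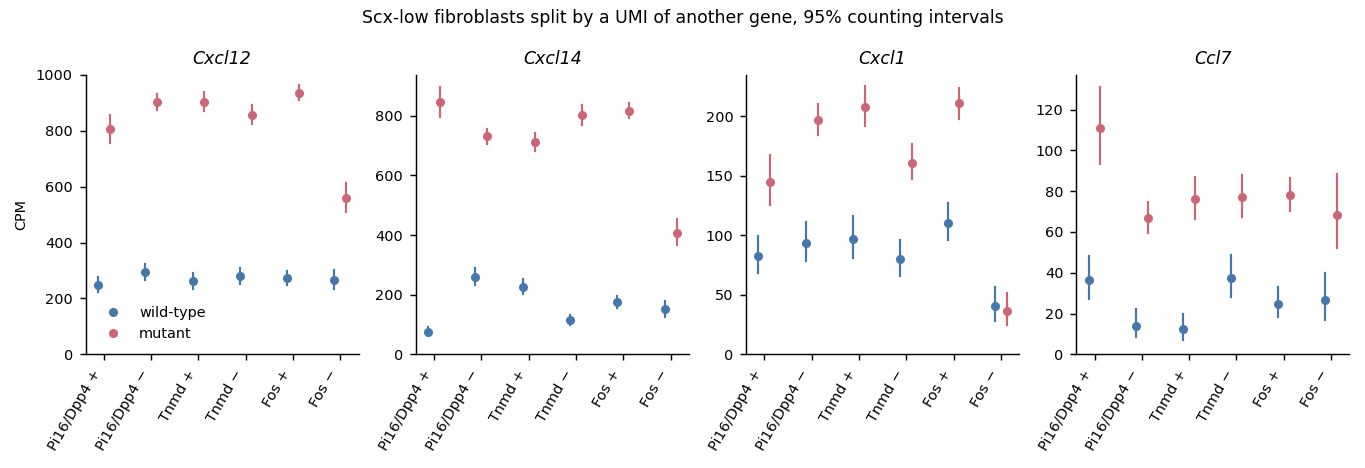
CPM (axes from 0, 95% counting intervals) of 4 genes in Scx-low fibroblasts split by a UMI of Pi16 or Dpp4, of Tnmd and of Fos, wild-type in blue and mutant in red. Wild-type Cxcl14 is low in Pi16/Dpp4 cells (76.0), and Cxcl1 of both libraries is low in cells without Fos (40.4 and 36.6).

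Genes known to be induced quickly by cell stress differed along with some members. Of 14 immediate early and stress genes, 13 were tested in Scx-low cells. In the mutant 3 were over 2-fold higher and 0 lower, against 5.70% and 5.64% of 11062 genes. The 3 were Fos (869.9 and 1877 CPM), Zfp36 (85.8 and 181) and Socs3 (88.8 and 219). The median log2 ratio over the list was 0.61. In Scx-high cells 0 of 12 passed 2-fold, with a median of −0.25, where 12.8% of all genes were higher and 7.89% lower. Fos was detected in 480 of 716 wild-type and 1537 of 1824 mutant Scx-low cells. Cxcl1 was higher in cells with Fos, at 110.4 CPM in wild-type Scx-low cells with Fos and 40.4 in those without (ratio 2.73, 1.90 to 4.03), and at 211 and 36.6 in the mutant (ratio 5.76, 4.03 to 8.53). Among cells without Fos the mutant over wild-type ratio of Cxcl1 was 0.906 (0.540 to 1.51), so the difference was not detectable there. Cxcl12 stood at a ratio of 3.43 (3.13 to 3.77) in cells with Fos and at a lower one of 2.10 (1.79 to 2.47) in cells without, and Cxcl14 at 4.68 (4.17 to 5.25) and 2.70 (2.20 to 3.33). For Ccl7 the ratios were 3.14 (2.30 to 4.36) and 2.58 (1.57 to 4.38). Cells without Fos were somewhat shallower, with medians of 3529.5 against 3710 UMIs in wild-type and 2482 against 2952 in the mutant. The paper reports Fos as induced in mutant tendon cells, so a Fos UMI does not tell cell stress apart from the mutant state. The part of cell stress in these results was not tested.

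Some members were found together in single cells. Of the 1660 mutant Scx-low cells with 1500 or more UMIs, each thinned to 1500, 245 held Cxcl1 and 96 held Ccl7. Cxcl1 was found in 41.7% of the cells with Ccl7 (31.7 to 52.2) and 13.1% of those without (11.5 to 14.9). Cxcl14 was found in 61.5% of the cells with Ccl7 (51.0 to 71.2) and 30% of those without (27.7 to 32.3). Cxcl12 was found in 70.1% of the cells with Cxcl14 (66.0 to 74.0) and 51.3% of those without (48.4 to 54.3). In wild-type, Cxcl12 and Cxcl14 did not go together: Cxcl14 was in 13.1% of the cells with Cxcl12 and 12.6% of those without. Cxcl14 was in 1 of 46 wild-type cells with Cxcl1, 2.17% (0.0550 to 11.5), and in 13.5% of those without (10.9 to 16.4). These intervals overlap. In wild-type immune cells, Ccl2 was found in 63.5% of the cells with Ccl7 (49.0 to 76.4) and 34.0% of those without (24.8 to 44.2), and in mutant ones in 64.0% (42.5 to 82.0) and 30% (20.8 to 40.6).

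Among immune cells, those with 3 or more C1q UMIs, C1q being made by macrophages, numbered 181 of 193 and 167 of 196. Ccl2 was in 58.6% of the wild-type and 46.1% of the mutant ones, at median depths of 2477 and 1658 UMIs. Ccl8 was 6.14 times as high in CPM in the mutant ones (3.81 to 10.3). Ccl3 in C1q cells was at 121 and 102 CPM, a ratio of 0.838 (0.528 to 1.31), and 1 wild-type cell without C1q held 28 of the 88 UMIs of its library's immune cells.

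Other chemokines and the receptors were counted from the family names, leaving out 5 symbols held by several gene rows. Of 27 other chemokine genes, 10 had 50 or more UMIs over both libraries, and of 23 receptor genes 8 did. In Scx-low cells, 3 of 8 other chemokines tested were over 2-fold higher in the mutant and 2 lower, against 5.70% and 5.64% of 11062 genes. The higher ones were Ccl9 (1.11 and 7.70 CPM), Ccl12 (0 and 3.50, at least 3.17-fold) and Cxcl5 (1 and 38 UMIs, 18.0 times with an interval of 3.05 to 731). All 3 were tested through their mutant UMIs, Ccl9 with 3 wild-type and 44 mutant UMIs and Ccl12 with 0 and 20. Ccl9 and Ccl12 lay in 11 and 10 mutant Scx-low cells, and mutant immune cells carried them at 364 and 366 CPM. The lower ones were Pf4 and Cxcl2, which immune cells carried at 8336 and 575 CPM in wild-type.

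Of 4 receptor genes tested in Scx-low cells, the atypical receptors Ackr1, Ackr2 and Ackr3 were over 2-fold lower in the mutant, where 5.64% of all genes were, and Ackr4 was at 6.63 and 7.70 CPM (ratio 1.16, 0.657 to 2.13). Ackr3 stood at 246 CPM in wild-type and 49.9 in mutant Scx-low cells, 4.94 times lower (ratio 0.202, 0.176 to 0.233), and was also lower in mural cells (ratio 0.398, 0.220 to 0.675) and in the few endothelial cells (ratio 0.0948, 0.0292 to 0.241). In Scx-high cells it was at 19.3 and 22.9. Ackr2, which takes up inflammatory CC chemokines, had 83 UMIs in 47 wild-type and 12 in 8 mutant Scx-low cells, a ratio of 0.0687 (0.0341 to 0.126). Ackr1 was at 22.1 and 11 CPM, a ratio of 0.499 (0.345 to 0.722). None of the 4 was over 2-fold higher. Among signalling receptors, Ccr1 and Ccr2 were found in immune cells and had 0 UMIs in Scx-low cells. Ccr2, the receptor of Ccl2, was at 21.2 CPM in wild-type and 167 in mutant immune cells, 7.85 times as high (4.11 to 16.5), with 11 UMIs in 7 cells and 65 in 29. Ccr1 was at 121 and 172, a ratio of 1.41 (0.987 to 2.03). Cxcr4, the signalling receptor of Cxcl12, was sparse, with 20 and 5 UMIs in immune cells (38.6 and 12.8 CPM) and 3 and 6 in endothelial cells (35.5 and 52.5 CPM).

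The genes whose levels went most like each member were ranked by Pearson correlation of log2(CPM + 1) over 10 points, the 5 classes of both libraries, which share library and depth. Cxcl12 went most with Slc25a17 (r = 0.961), Cdk4 and Prss23, and Cxcl14 with Dusp12 (r = 0.933), C1qtnf4 and Gfpt1. Ccl7 went with Snx10 (r = 0.951) and Ccl2 (r = 0.926). Ccl3 went with the macrophage gene Cx3cr1 (r = 0.992), Ptpn6 and Slamf9. With 9402 genes compared over 10 points these are a description.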

How the data were processed

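Tendon cells were released by enzymes from pooled limbs of 2 pups per condition and run on the 10x Genomics 3′ platform. The deposited values are whole-number counts of UMIs per gene and cell, which the authors made with Cell Ranger against mm10 (version 2.0 in the methods, 1.2.0 in the submitters' processing notes) and filtered on total UMIs per cell. All deposited barcodes were used, ranging from 948 to 14358 UMIs per wild-type and 903 to 15968 per mutant cell; 2 barcodes occurred in both libraries. The deposited counts were not normalised further.

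Members, gene lists and gates were chosen with earlier results of these data known. Immune, endothelial, mural and Schwann cells needed 3 UMIs over at least 2 genes of a class, red cells 50% haemoglobin UMIs, and the Scx and fibroblast rules were then applied. A total of 2 wild-type and 10 mutant cells passed 2 such gates and took the class with more UMIs. UMIs were summed per class, and ratios carry exact conditional binomial intervals, levels exact Poisson and shares exact (Clopper-Pearson) binomial ones. PCR copies are collapsed by the UMIs. The 37 gate genes were left out of counts over all genes. A class at 0 was set against a floor of 3 counts. No p-value was computed. Genes named are the members, other chemokines and receptors with 50 or more UMIs (Cxcl5 was named after its values were seen), up to 4 of the stress list, and the 3 genes most like a member. The splits by Fos and by fibroblast genes in Scx-high cells were added after seeing the data, as was leaving out immune cells with fibroblast genes. Doublets were kept; leaving out those that Scrublet called (26 and 8) was an alternative, as were other cuts, scalings and filters. Positions are those of GENCODE on GRCm38. Python 3.11.15, NumPy 2.4.6, SciPy 1.17.1, pandas 2.3.3, Scanpy 1.11.5 and Matplotlib 3.10.9 were used, and the ratio and interval code was tested on simulated counts.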

Additional observations from a re-analysis of the deposited data

Results flagged for a closer look

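Ratios of Cxcl14 and Ccl2 pointed in opposite directions in different groups with both counting intervals clear of 1, and none of these differences was tested, since each condition had 1 library. The Cxcl14 ratio of Scx-low over Scx-high cells was 0.515 in wild-type and 9.13 in the mutant. Its mutant over wild-type ratio was 4.53 in Scx-low and 0.255 in Scx-high cells. The Ccl2 ratio of Scx-low over Scx-high cells was 24.2 in wild-type and 0.449 in the mutant, and its mutant over wild-type ratio was 0.510 in Scx-low, 27.5 in Scx-high and 1.2 in immune cells. The Ccl2 values of Scx-low cells rest on 5 cells that held 91.9% of the wild-type UMIs. Without the 5 cells with most UMIs in each library the mutant over wild-type Scx-low ratio was 2.03. That value rests on 10 wild-type and 43 mutant UMIs, and the trim took a larger part of the wild-type cells. The Ccl2 values of Scx-high cells rest on 9 wild-type and 54 mutant UMIs, 27 of the latter in 1 cell. The mutant over wild-type Scx-high ratio was thus tested through the mutant. Cxcl14 was carried by 136 wild-type and 709 mutant Scx-low cells, and its opposite ratios did not turn under any alternative tried.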

How the results depend on the processing

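No paired analysis was possible because each condition had 1 library. Of 429 ratios recomputed under the alternatives planned (other Scx, fibroblast and gate cuts, scalings, filters and doublet removal), 411 stayed within the counting interval, 18 moved past it and 0 called ratios turned. Of 153 under the alternatives added after seeing the data, 98 stayed, 54 moved and 1 called ratio turned: Cxcl1 in mutant over wild-type Scx-low cells was 2.10, and 0.906 among cells without a Fos UMI. The Ccl2 ratio there, 0.510 and so short of 2-fold, was 2.03 without the 5 cells with most UMIs. That trim took a larger part of the wild-type than of the mutant cells. Among cells without a Fos UMI, 2 members in place of 4 were over 2-fold higher in mutant Scx-high cells, 3 in place of 6 in the summed fibroblasts and 0 in place of 2 in immune cells. Leaving out the 5 cells with most UMIs of a gene gave 1 in place of 4 in Scx-high cells and 1 in place of 2 in immune cells, as did leaving out immune cells with fibroblast genes. Part of these losses came from the minimum of 20 UMIs, not from the ratio: without Fos, immune Ccl8 had 17 mutant and 0 wild-type UMIs and Scx-high Ccl2 11 and 1, and without the 5 cells Scx-high Ccl2 had 13 and 4, Ccl7 17 and 1, and immune Cxcl12 13 and 0. In the summed fibroblasts Ccl8 had under 20 UMIs without Fos. Immune Cxcl12, Cxcl14 and Cxcl1 had too few UMIs without Fos for a ratio. A Scx cut of 50 per 10,000 moved the Ccl2 ratio of mutant Scx-low over Scx-high cells from 0.449 to 0.919, and the Cxcl1 ratio of mutant over wild-type Scx-high cells from 2.35 to 1.51. The cause of the other shifts was not tested. Of 16 shares thinned to 1000 in place of 1500 UMIs per cell, 10 stayed within the interval and 6 were outside it. Drawing fewer UMIs makes a UMI of a gene less likely in each cell, so these counts do not bear on differences between the libraries. Over all alternatives the mutant over wild-type ratio in Scx-low cells ran from 2.10 to 3.54 for Cxcl12, 2.70 to 5.40 for Cxcl14 and 2.58 to 4.72 for Ccl7. The lower bounds of Ccl11 and Ccl8 over classes at 0 scale with the counts left and went down to 1.85.

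With 22 and 30 endothelial cells, a class at 0 UMIs allows levels of up to 35.5 and 26.2 CPM there. The mutant library was shallower, and both CPM and the thinned shares are scaled for depth while unthinned shares are not. Spread between pups was not measured.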

Other observations

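Schwann cells, of which the wild-type library held 2 and the mutant 58, carried 387 CPM of Cxcl12 in the mutant (299 to 494), with 38 of 65 UMIs in 1 cell. They held 185 CPM of Cxcl14 (125 to 262), with 23 of 31 UMIs in 1 cell and a UMI in 6 of 58 cells. Cells in no class, 36 and 89, held 145 and 173 CPM of Cxcl12. The CX3C family gene Cx3cl1 stood at 3.12 CPM in wild-type and 26.7 in mutant Scx-high cells, a ratio of 8.55 (4.41 to 17.2), on 15 and 28 UMIs.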
